A study of Caenorhabditis elegans with 14 samples.

Results

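Lysozymes are enzymes that break bonds in the peptidoglycan of bacterial cell walls. In *Caenorhabditis elegans*, a nematode that lives on bacteria, they belong to the secreted effectors of digestion and innate immunity, and several are made in the intestine. The genome carries a protist-type family, the *lys* genes, and an invertebrate-type family, the *ilys* genes. Here, 10 lysozyme genes were followed: *lys-1*, *lys-2*, *lys-3*, *lys-4*, *lys-5*, *lys-6*, *lys-7*, *lys-8*, *lys-10* and *ilys-3*. They were chosen by name from the annotation of the expression tables, in which they make up 10 of 12483 genes, and each of them was listed for both strains.

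The study asked how gene expression changes when *anc-1* is knocked down. ANC-1 is a KASH domain protein that ties the nuclear envelope to actin filaments. Hermaphrodites on day 6 of adulthood were compared after feeding on HT115 bacteria that expressed double-stranded RNA toward *anc-1* (*anc-1* RNAi) or carried the empty vector (EV, called untreated in the series). This was done in polyQ35-YFP worms (strain AM140, n = 4 for each treatment), which express 35 glutamines fused to YFP in body-wall muscle from the *unc-54* promoter, and in wild-type worms (strain N2, n = 3 for each treatment). RNA of whole worms was sequenced with CEL-Seq2, which reads the polyadenylated end of transcripts, and in such homogenates fewer cells of a type and less RNA per cell cannot be told apart. Values are normalised read counts, that is, reads divided by the size factor of the sample. The strains were normalised separately, so levels are compared only within a strain.

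The samples held 5718349 to 8414290 reads on the listed genes in polyQ35-YFP *anc-1* RNAi worms, 5905938 to 11563506 in polyQ35-YFP EV worms, 4934531 to 7227357 in wild-type *anc-1* RNAi worms and 5694086 to 10513485 in wild-type EV worms. The targeted gene, *anc-1*, averaged 37.5 ± 14.2 under *anc-1* RNAi and 346 ± 48.1 under EV in polyQ35-YFP worms (SD, n = 4 each), and 51.1 ± 15.2 under *anc-1* RNAi and 315 ± 29.8 under EV in wild-type worms (SD, n = 3 each). Principal components of the polyQ35-YFP samples were taken over the 9566 genes with a mean normalised read count of at least 10. On the first component, EV replicate 4 stood furthest from the others, at 49.2. *anc-1* RNAi replicate 4 came next on that side at 20.1, and *anc-1* RNAi replicate 2 lay as far out on the other side at -20.6. The number of lysozyme genes called in this strain is given below with and without both samples numbered 4.

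Knockdown of *anc-1* went with higher *lys-7* in both strains, by 3.59-fold in polyQ35-YFP and 3.02-fold in wild-type worms. In wild-type worms *lys-8*, *lys-1* and *lys-2* were higher too, by 1.87-fold, 1.74-fold and 1.61-fold. No lysozyme gene passed the test in the lower direction in either strain. Genes were called at a Benjamini-Hochberg adjusted p below 0.05 over all genes of the strain, with limma on log2(normalised read count + 1). In polyQ35-YFP worms, 1 of 10 lysozyme genes was called higher, beside 0.772% of the 12173 genes tested, and 0 of 10 lower, beside 1.47%. For wild-type worms, 4 of 10 were called higher, beside 7.5% of the 12061 genes tested, and 0 of 10 lower, beside 6.13%. At an unadjusted p below 0.05, 4 lysozyme genes were higher in polyQ35-YFP worms (*lys-7*, *lys-8*, *lys-1* and *lys-6*), beside 7.44% of all genes. In wild-type worms 6 were higher, a count for which the share of all genes was not worked out. At this unadjusted threshold, 2 were lower in polyQ35-YFP worms (*lys-4* and *lys-5*), beside 8.08% of all genes, and 1 in wild-type worms (*lys-4*), beside 13.2%. With adjusted p-values, edgeR and DESeq2 likewise called 0 lower. The median log2 fold change of the 10 genes was 0.47 in polyQ35-YFP worms, beside 0.03 over all genes, and 0.74 in wild-type worms, beside 0.00.

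**Figure D1:**
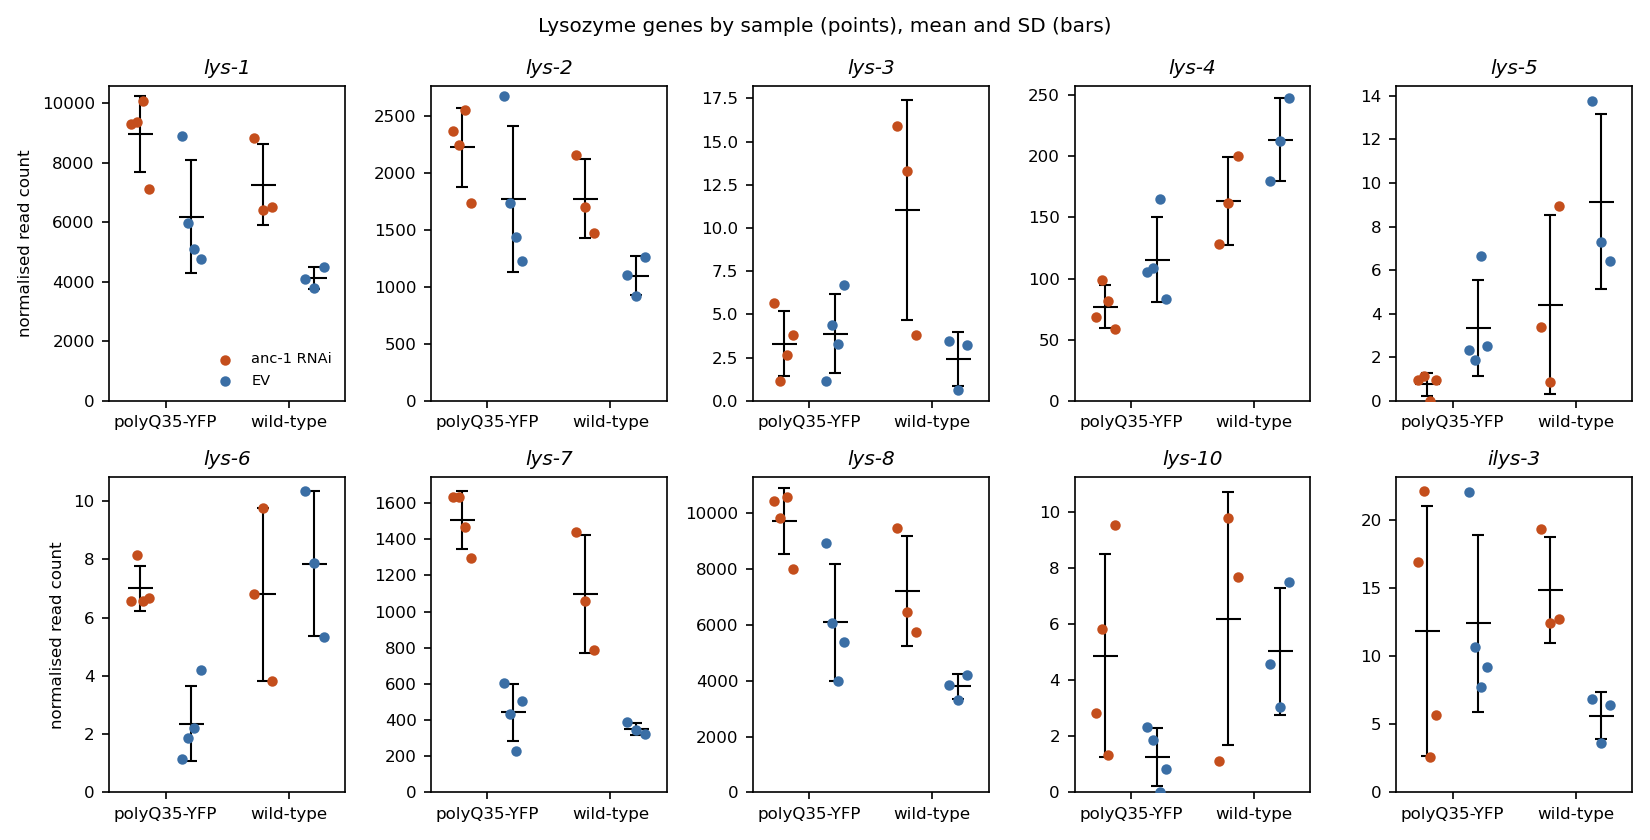
Normalised read counts (linear axes from 0, 1 panel per gene) of the 10 lysozyme genes in each sample, *anc-1* RNAi (orange) left of EV (blue) within each strain, with the mean and SD of 4 polyQ35-YFP or 3 wild-type samples as bars. The *lys-7* points of the *anc-1* RNAi groups lie above all EV points in both strains, whereas *lys-1*, *lys-2* and *lys-8* overlap in polyQ35-YFP worms and separate in wild-type worms.

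The plot of normalised read counts by sample shows the groups behind these calls. In polyQ35-YFP worms, every *anc-1* RNAi sample lay above every EV sample for 2 of the 10 genes (*lys-6* and *lys-7*), an order found in 3.39% of all genes, and for *lys-5*, with 0 to 1 raw reads under *anc-1* RNAi against 2 to 6 under EV, they all lay below, as in 5.94% of all genes. Among wild-type worms the *anc-1* RNAi samples were all above the EV samples for 6 of the 10 (*lys-1*, *lys-2*, *lys-3*, *lys-7*, *lys-8* and *ilys-3*), against 15.8% of all genes.

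*lys-7* (V:3481419-3482600, minus strand, WBcel235) encodes a lysozyme of the innate immune response that takes part in defence against Gram-negative and Gram-positive bacteria. It is a known target of the FOXO transcription factor DAF-16. In polyQ35-YFP worms it had 1636, 1632, 1468 and 1295 normalised reads under *anc-1* RNAi, against 603, 435, 229 and 505 under EV. The lowest *anc-1* RNAi sample thus exceeded the highest EV sample, and the log2 fold change of 1.84 ± 0.24 (SE, limma, adjusted p = 0.00178) ranked 38 of 12173 from the top. Its values in wild-type worms were 1441, 1060 and 789 under *anc-1* RNAi, against 389, 344 and 325 under EV. The groups were again separate, with EV samples that lay close together and a log2 fold change of 1.60 ± 0.16 (SE, limma, adjusted p = 7.58e-06) that ranked 195 of 12061. The polyQ35-YFP call was kept in 16 of 17 alternatives, with log2 fold changes of 1.56 to 2.02, and was lost in the fit without a variance trend over expression (adjusted p = 0.0624).

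*lys-8* (II:5586165-5587652, plus strand) encodes another lysozyme and is a known target of DBL-1 signalling, the TGF-β pathway that also sets body size. It overlaps the protein-coding gene *C17G10.13* on the opposite strand, and whether reads were counted by strand is not given in the sources used here. Normalised reads in polyQ35-YFP worms were 10442, 9848, 10595 and 8024 under *anc-1* RNAi, against 8957, 6054, 3979 and 5407 under EV. Replicate 1 of EV reached into the *anc-1* RNAi range, and the log2 fold change of 0.73 ± 0.20 (SE, limma) did not pass the threshold (adjusted p = 0.0842). It passed in 4 of 17 alternatives, over which the adjusted p ranged from 0.00921 to 0.232. These were the replicate number as a block (adjusted p = 0.00921), the fit without EV replicate 1 (adjusted p = 0.0147), DESeq2 (adjusted p = 0.0493) and the fit without both samples numbered 4. Wild-type worms had 9472, 6468 and 5761 normalised reads under *anc-1* RNAi, against 3853, 3318 and 4222 under EV. These groups did not overlap, and the log2 fold change was 0.90 ± 0.14 (SE, limma, adjusted p = 3.01e-04).

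*lys-1* (V:10277827-10279127, plus strand) encodes an intestinal lysozyme known to be induced by the Gram-negative pathogen *Serratia marcescens*. It had 9280, 9378, 10080 and 7114 normalised reads in polyQ35-YFP worms under *anc-1* RNAi, against 8907, 5979, 5107 and 4764 under EV. EV replicate 1 lay above *anc-1* RNAi replicate 4, so the groups overlapped, and the log2 fold change of 0.57 ± 0.19 (SE, limma) was not called (adjusted p = 0.148). With the replicate block the adjusted p was 0.0163, and without EV replicate 1 it was 0.0261, both past the threshold, over a range of 0.0163 to 0.343 in 17 alternatives. The wild-type samples had 8826, 6423 and 6509 normalised reads under *anc-1* RNAi, against 4092, 3777 and 4504 under EV. They were separate by group, with a log2 fold change of 0.80 ± 0.12 (SE, limma, adjusted p = 1.35e-04).

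*lys-2* (V:10280310-10281470, minus strand), the neighbour of *lys-1*, is annotated in the tables with defence against both Gram-negative and Gram-positive bacteria, as are *lys-1* and *lys-7*. Under *anc-1* RNAi the polyQ35-YFP worms had 2364, 2240, 2549 and 1739 normalised reads, against 2673, 1735, 1439 and 1227 under EV. The highest of these 8 samples was EV replicate 1, and the log2 fold change of 0.38 ± 0.21 (SE, limma) was not called (adjusted p = 0.418), nor with the replicate block (adjusted p = 0.110). In wild-type worms the values were 2152, 1697 and 1474 under *anc-1* RNAi, against 1106, 923 and 1266 under EV. Here the groups were separate, and the log2 fold change was 0.69 ± 0.14 (SE, limma, adjusted p = 0.00233).

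In polyQ35-YFP worms, 3 lysozyme genes were called higher with the replicate block (*lys-7*, *lys-8* and *lys-1*), beside 3.83% of all genes. The same 3 were called without EV replicate 1, beside 1.25% of all genes, and 2 (*lys-7* and *lys-8*) when both samples numbered 4 were left out, beside 2.67%. EV replicate 1 was the highest EV sample for these genes, so leaving it out raises their fold changes. Of the 8 fits with a single sample left out, it was the only 1 in which *lys-8* or *lys-1* was called. Of the 4 wild-type calls, those of *lys-1*, *lys-2* and *lys-8* were lost in 1 of 14 alternatives, the fit without a variance trend (adjusted p of 0.0625, 0.116 and 0.0837), and that of *lys-7* in none.

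**Figure D2:**
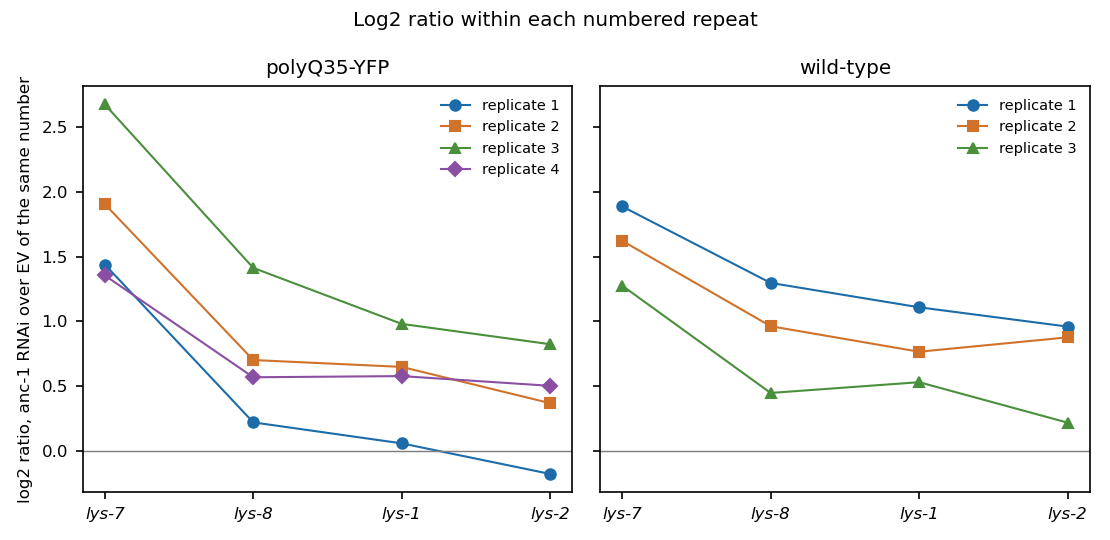
Log2 ratio of the normalised read count (+ 1) under *anc-1* RNAi over that of the EV sample of the same replicate number, for the 4 lysozyme genes with the most reads, in polyQ35-YFP (left) and wild-type worms (right), 1 line per replicate number. In polyQ35-YFP worms replicate 1 gives the lowest ratio for *lys-8*, *lys-1* and *lys-2*, and all 3 wild-type ratios are above 0 for each gene.

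In polyQ35-YFP worms, *anc-1* RNAi replicate 4 was the lowest of its group for all 4, and EV replicate 1 the highest of its group for all 4. Among wild-type worms, *anc-1* RNAi replicate 1 was the highest of its group for all 4. Each repeat of the study held both treatments, and the plot of ratios within numbered repeats sets the samples side by side in this way. The log2 ratio of *lys-7* in the polyQ35-YFP repeats 1 to 4 was 1.44, 1.91, 2.67 and 1.36, above 0 in each. For *lys-8* these ratios were 0.22, 0.70, 1.41 and 0.57, and for *lys-1* they were 0.06, 0.65, 0.98 and 0.58, so repeat 1 was nearest to 0 for both. Those of *lys-2* were -0.18, 0.37, 0.82 and 0.50, higher under *anc-1* RNAi in 3 of 4 repeats.

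These 4 genes supplied 97.3 to 99.6% of the reads of the 10 lysozyme genes in the 14 samples. In reads scaled to the total of each library (RPM), the 10 genes together gave 3221, 3185, 3293 and 2279 RPM in polyQ35-YFP worms under *anc-1* RNAi, against 3108, 1977, 1539 and 1486 RPM under EV. The total of EV replicate 1 lay within the *anc-1* RNAi range. In wild-type worms they gave 3477, 2471 and 2345 RPM under *anc-1* RNAi, against 1479, 1349 and 1685 RPM under EV, without overlap.

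The other 6 lysozyme genes had few reads, except *lys-4*, and none was called in either strain. *lys-3* (V:10282204-10283448, minus strand), the third gene of the *lys-1* cluster, had 5.64, 1.17, 2.63 and 3.81 normalised reads in polyQ35-YFP worms under *anc-1* RNAi, against 1.16, 4.39, 3.32 and 6.71 under EV, and the groups overlapped. In wild-type worms its raw reads were 14, 15 and 3 under *anc-1* RNAi, against 3, 1 and 3 under EV. After normalisation these were 15.9, 13.3 and 3.83 under *anc-1* RNAi, against 3.44, 0.606 and 3.21 under EV. The groups were separate by a narrow margin, and the log2 fold change of 1.76 ± 0.61 (SE, limma) missed the threshold (adjusted p = 0.0646). It was called by edgeR (adjusted p = 0.0318), with a pseudocount of 5 (adjusted p = 0.0497) and without *anc-1* RNAi replicate 3 (adjusted p = 0.0213), over a range of 0.0213 to 0.242 in 13 alternatives.

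*ilys-3* (IV:2464471-2465440, plus strand), the invertebrate-type member, acts against Gram-positive bacteria and is expressed in the pharynx and intestine. PolyQ35-YFP worms had 16.9, 22.1, 2.63 and 5.71 normalised reads under *anc-1* RNAi, against 22.03, 10.7, 7.75 and 9.22 under EV. These samples overlapped, and the log2 fold change was -0.31 ± 0.55 (SE, limma, adjusted p = 0.848). Wild-type worms had 19.3, 12.4 and 12.76 normalised reads under *anc-1* RNAi, against 6.88, 3.64 and 6.42 under EV. All 3 *anc-1* RNAi samples were above the EV samples, with a log2 fold change of 1.26 ± 0.42 (SE, limma, adjusted p = 0.0569), and with a pseudocount of 5 the gene was called (adjusted p = 0.0438, range 0.0438 to 0.207 in 14 alternatives).

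*lys-4* (IV:11621443-11623124, minus strand), annotated with defence against Gram-positive bacteria, was the one well-counted lysozyme gene with lower mean values under *anc-1* RNAi. It had 68.6, 99.1, 81.6 and 59.0 normalised reads in polyQ35-YFP worms under *anc-1* RNAi, against 105, 108, 165 and 83.0 under EV. Its wild-type values were 128, 162 and 200 under *anc-1* RNAi, against 180, 213 and 248 under EV. The groups overlapped in both strains, while the *anc-1* RNAi sample was below the EV sample of its number in each of the 4 polyQ35-YFP and 3 wild-type repeats. The log2 fold change was -0.56 ± 0.24 for polyQ35-YFP worms (SE, limma, adjusted p = 0.272) and -0.40 ± 0.18 for wild-type worms (SE, limma, adjusted p = 0.153).

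*lys-5* (IV:11624255-11625582, minus strand) and *lys-6* (IV:11626910-11627947, minus strand) adjoin *lys-4*. In polyQ35-YFP worms *lys-5* had 1, 1, 0 and 1 raw reads under *anc-1* RNAi, against 2, 3, 6 and 3 under EV, so the groups were separate at a depth of a few reads (fitted log2 fold change -1.24 ± 0.56, SE, limma, adjusted p = 0.303). In wild-type worms *lys-5* had 3.41, 0.888 and 8.93 normalised reads under *anc-1* RNAi, against 13.8, 7.27 and 6.42 under EV, with overlap.

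For *lys-6* the polyQ35-YFP samples had 7, 7, 5 and 7 raw reads under *anc-1* RNAi, against 1, 3, 2 and 5 under EV. After normalisation these were 6.58 to 8.16 under *anc-1* RNAi, against 1.16 to 4.19 under EV, separate but not called (log2 fold change 1.32 ± 0.43, SE, limma, adjusted p = 0.146). The wild-type samples had 6.82, 9.77 and 3.83 normalised reads under *anc-1* RNAi, against 10.3, 7.88 and 5.35 under EV, and these overlapped. *lys-10* (IV:8332826-8333559, plus strand) spanned 1.32 to 9.52 normalised reads under *anc-1* RNAi, against 0 to 2.32 under EV, in polyQ35-YFP worms. Its wild-type values spanned 1.14 to 9.77 under *anc-1* RNAi, against 3.03 to 7.48 under EV, and the gene was not called in either strain. In polyQ35-YFP worms its log2 fold change was 1.29 ± 0.61 (SE, limma, adjusted p = 0.332), with the *anc-1* RNAi sample above the EV sample of its number in 4 of 4 repeats (log2 ratios of 0.20 to 2.52), and in wild-type worms it was 0.02 ± 0.62 (adjusted p = 0.990), with 2 of 3 above.

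**Figure D3:**
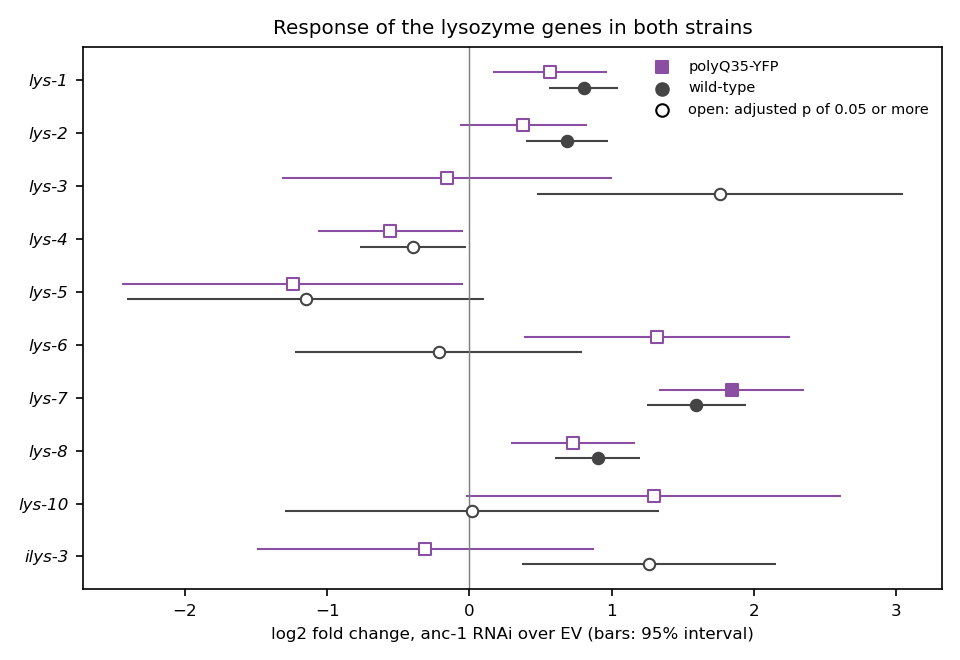
Log2 fold change (*anc-1* RNAi over EV, on the log2(normalised read count + 1) scale) of each lysozyme gene in polyQ35-YFP worms (squares) and wild-type worms (circles), with 95% intervals, filled where the adjusted p is below 0.05. The intervals of *lys-7* lie above 0 and overlap between the strains, and the genes with few reads have wide intervals.

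Next, the responses of the strains were compared directly, as the interaction of strain and treatment over the 11751 genes listed for both, since a call in one strain and not in the other does not show that they differ. None of the 10 lysozyme genes passed (adjusted p = 0.999 for each, limma), beside 0.00851% of all genes, and edgeR and DESeq2 also called 0. At an unadjusted p below 0.05 there were 2, *lys-3* and *lys-6*, beside 3.46% of all genes. The difference in log2 fold change, polyQ35-YFP minus wild type, was 0.25 for *lys-7* (95% interval -0.47 to 0.97). It was -0.24 for *lys-1* (-0.78 to 0.31), -0.31 for *lys-2* (-0.93 to 0.32) and -0.18 for *lys-8* (-0.80 to 0.45). All these intervals hold 0, and that of *lys-2* also holds a difference as large as its wild-type response. The differences furthest from 0 were those of *lys-3*, at -1.92 (95% interval -3.69 to -0.14), *ilys-3*, at -1.58 (-3.17 to 0.01), and *lys-6*, at 1.54 (0.24 to 2.83), all from few reads, and the plot of fold changes in both strains shows the width of the intervals behind them.

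**Figure D4:**
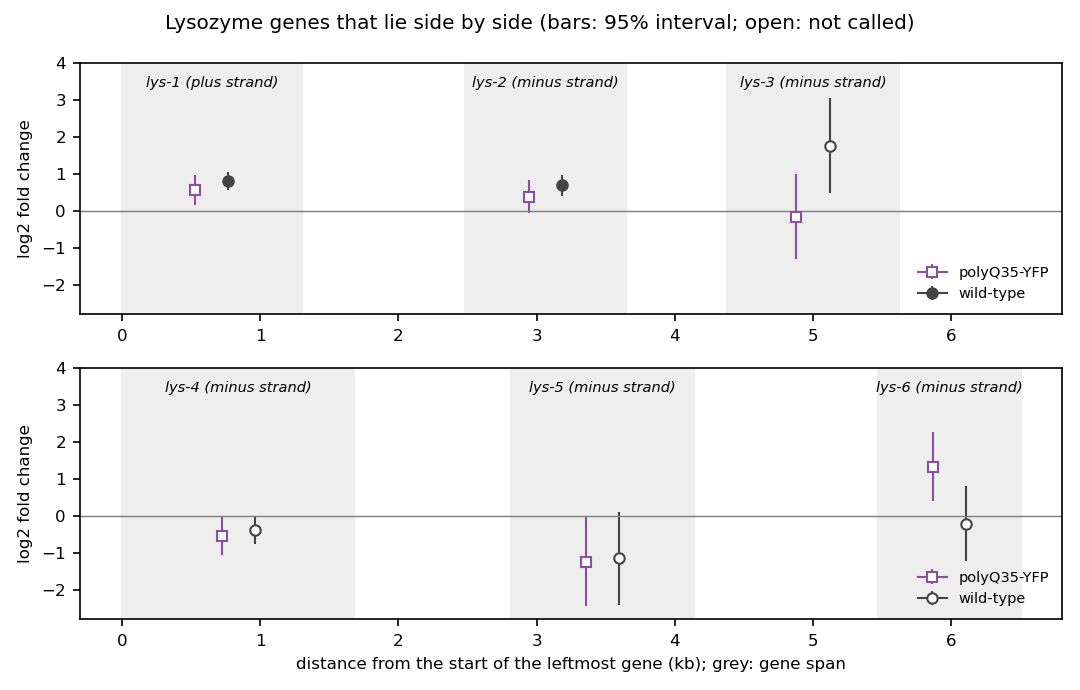
Log2 fold change (*anc-1* RNAi over EV, 95% interval) of the 3 genes of the *lys-1* cluster (top) and of the *lys-4* cluster (bottom), against the distance in kb from the start of the leftmost gene, polyQ35-YFP worms as squares and wild-type worms as circles, filled where called. In the upper cluster all wild-type values are above 0, and in the lower cluster the values of *lys-4* and *lys-5* are below 0 in both strains.

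The genes lie in clusters. *lys-1*, *lys-2* and *lys-3* occupy 5622 bases of chromosome V (10277827 to 10283448), and *lys-4*, *lys-5* and *lys-6* occupy 6505 bases of chromosome IV (11621443 to 11627947), in both cases with 0 other protein-coding genes in between. In gene order, the polyQ35-YFP log2 fold changes were 0.57, 0.38 and -0.16 in the first cluster and -0.56, -1.24 and 1.32 in the second. None of these 6 values was called, and that of *lys-3* changed sign when single samples were left out. The wild-type values were 0.80, 0.69 and 1.76 in the first cluster and -0.40, -1.15 and -0.22 in the second. The map of neighbouring genes shows these values along the chromosome, of which those of *lys-1* and *lys-2* in wild-type worms were called. *lys-7* and *lys-8*, with the lowest adjusted p in polyQ35-YFP worms, lie apart from the other members on chromosomes V and II.

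Among lysozyme genes outside the 10, *ilys-2* lies next to *ilys-3*. In polyQ35-YFP worms it averaged 18.2 ± 10.3 normalised reads under *anc-1* RNAi and 17.4 ± 7.13 under EV (SD, n = 4 each). In wild-type worms it was called higher, with 34.7 ± 5.71 normalised reads under *anc-1* RNAi and 17.1 ± 6.06 under EV (SD, n = 3 each, log2 fold change 1.02 ± 0.32, SE, limma, adjusted p = 0.0398), a call lost in 7 of 14 alternatives. *ilys-4* and *ilys-5* were not called in either strain. In polyQ35-YFP worms *ilys-5* averaged 2021 ± 202 normalised reads under *anc-1* RNAi and 1602 ± 466 under EV (SD, n = 4 each). In wild-type worms it averaged 2204 ± 250 under *anc-1* RNAi and 2144 ± 363 under EV (SD, n = 3 each). It had more reads in total than *lys-7* in both strains. *lys-9*, *ilys-1* and *ilys-6* were not listed for either strain.

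Several pathways are known to control intestinal defence genes in *C. elegans*, and their genes were read in the same samples. The lists were written with earlier results of these data known, so the counts only describe them. Over all genes of the polyQ35-YFP table, 0.772% were called higher and 7.44% were higher at an unadjusted p below 0.05, and 7.5% of all wild-type genes were called higher. Of 6 genes of the p38 MAPK pathway, 0 were called in polyQ35-YFP worms by limma, while 2 were called lower with the replicate block and 2 without EV replicate 4. Lower at an unadjusted p below 0.05 in both strains were the kinase genes *nsy-1*, with a log2 fold change of -0.54 in polyQ35-YFP and -0.35 in wild-type worms, and *pmk-1*, with -0.57 in polyQ35-YFP and -0.30 in wild-type worms, named here after their values were seen. In wild-type worms 2 genes of the pathway were called higher. These were *tir-1*, the adaptor at its head, with a log2 fold change of 0.42 ± 0.11 (SE, limma, adjusted p = 0.0163), and *vhp-1*, a phosphatase that opposes the pathway, with 0.62 ± 0.11 (adjusted p = 0.00107). The list median was -0.17 in polyQ35-YFP and 0.01 in wild-type worms. Of 6 effectors known to depend on p38, 1 was called higher in polyQ35-YFP worms and 3 in wild-type worms. *T24B8.5*, a small secreted peptide, changed by 1.34 ± 0.30 on the log2 scale in polyQ35-YFP worms (SE, limma, adjusted p = 0.0370, a call lost in 9 of 17 alternatives) and by 1.52 ± 0.26 in wild-type worms (adjusted p = 6.30e-04). The others in wild-type worms were *F35E12.5*, at 1.92 ± 0.51 (adjusted p = 0.0163), and *C17H12.8*, at 0.77 ± 0.15 (adjusted p = 0.00156). Not called in either strain was *F08G5.6*, at -0.83 in polyQ35-YFP and -0.61 in wild-type worms. Nor were *K08D8.5* (0.0038 in polyQ35-YFP and -0.045 in wild-type worms) and *clec-85* (-0.14 in polyQ35-YFP and 0.12 in wild-type worms). The median of the effector list was 0.217 in polyQ35-YFP and 0.444 in wild-type worms.

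Of 10 genes of the DBL-1 pathway, 0 were called in polyQ35-YFP worms (0 at an unadjusted p below 0.05) and 2 were called higher in wild-type worms, the Smad gene *sma-3* at a log2 fold change of 1.07 ± 0.31 (SE, limma, adjusted p = 0.0263) and *crm-1* at 0.62 ± 0.15 (adjusted p = 0.00980). Of 6 DAF-16 targets other than lysozymes, 3 were called higher in wild-type worms, *dod-3* (0.86 ± 0.22), the catalase gene *ctl-2* (0.77 ± 0.20) and *gst-4*, a glutathione S-transferase gene better known as a SKN-1 target (0.90 ± 0.26). The log2 fold changes of the other 3 in wild-type worms, *mtl-1* (0.19), *sod-3* (-0.15) and *hsp-12.6* (-0.58), were not called. In polyQ35-YFP worms limma called 0 genes of the DAF-16 target list (1 higher unadjusted, and 1 called higher with the replicate block, with DESeq2, without EV replicate 1 and without both samples numbered 4). All 6 log2 fold changes there were above 0, from 0.265 to 0.763 (*ctl-2*). The list median was 0.370 in polyQ35-YFP and 0.483 in wild-type worms. Of 6 intestinal immune transcription factor genes, 0 were called in polyQ35-YFP worms by limma (2 higher unadjusted, and 1 called higher with the replicate block), and *zip-2* (0.77 ± 0.10, SE, limma, adjusted p = 6.17e-05) and *pqm-1* (0.59 ± 0.15, adjusted p = 0.0127) were called higher in wild-type worms. These wild-type counts moved by over 1.5 times in 5 of 14 alternatives for the p38 pathway, 7 for the DBL-1 pathway, 4 for the DAF-16 targets and 3 for the immune transcription factors. The median log2 fold change of the DBL-1 list was 0.227 in polyQ35-YFP and 0.356 in wild-type worms. That of the immune transcription factors was 0.345 in polyQ35-YFP and 0.397 in wild-type worms.

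**Figure D5:**
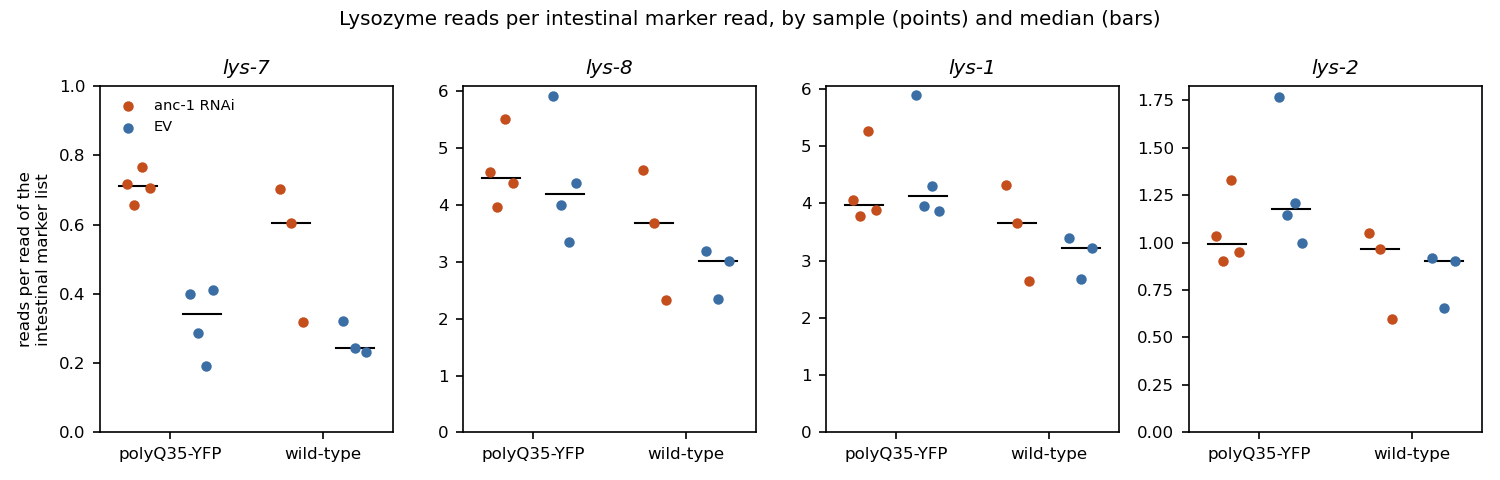
Reads of *lys-7*, *lys-8*, *lys-1* and *lys-2* divided by the summed reads of 7 intestinal marker genes in the same sample (linear axes from 0), *anc-1* RNAi (orange) left of EV (blue), points for samples and bars for medians. For *lys-8*, *lys-1* and *lys-2* the groups overlap in both strains, and for *lys-7* in polyQ35-YFP worms the *anc-1* RNAi samples (0.656 to 0.765) all lie above the EV samples (0.193 to 0.410).

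Markers of the intestine, where several lysozymes are made, had higher summed reads in the *anc-1* RNAi groups of both strains, although most of them were not called one by one. The 7 genes of the intestinal list (*elt-2*, *elt-7*, *ges-1*, *ifb-2*, *act-5*, *pept-1* and *vha-6*) summed to 229 to 341 RPM in polyQ35-YFP worms under *anc-1* RNAi, against 153 to 221 RPM under EV. In wild-type worms they summed to 273 to 392 RPM under *anc-1* RNAi, against 185 to 222 RPM under EV. Of the 7, 1 was called higher in polyQ35-YFP worms (*act-5*, the microvillar actin gene) and 2 in wild-type worms (*act-5* and *ifb-2*, an intestinal intermediate filament gene), 0 were called lower, and none was at 0 in all samples of a group. The list median was 0.38 in polyQ35-YFP and 0.59 in wild-type worms on the log2 scale. *act-5*, which holds most of the summed reads, changed by 0.78 ± 0.15 in polyQ35-YFP worms (SE, limma, adjusted p = 0.0159, a call lost in 5 of 17 alternatives) and by 0.67 ± 0.13 in wild-type worms (adjusted p = 0.00199). *elt-2*, which encodes the GATA factor that defines the intestine, had a log2 fold change of 0.57 ± 0.30 in polyQ35-YFP and 0.21 ± 0.33 in wild-type worms (SE), not called in either. The log2 fold changes of *pept-1*, a peptide transporter gene (-0.48 in polyQ35-YFP and -0.43 in wild-type worms), and *vha-6*, a proton pump gene (-0.11 in polyQ35-YFP and -0.32 in wild-type worms), were below 0 and likewise not called.

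A ratio chosen after these values were seen, lysozyme reads per read of the intestinal list, sets both beside each other, as in the plot of lysozyme reads per intestinal marker read. In polyQ35-YFP worms the *lys-7* ratio was 0.656 to 0.765 under *anc-1* RNAi, against 0.193 to 0.410 under EV, without overlap. For wild-type worms it was 0.320 to 0.704 under *anc-1* RNAi, against 0.232 to 0.322 under EV, where the lowest *anc-1* RNAi sample lay just under the highest EV sample. The *lys-1* ratio was 3.77 to 5.26 under *anc-1* RNAi, against 3.87 to 5.88 under EV, in polyQ35-YFP worms, and 2.64 to 4.31 under *anc-1* RNAi, against 2.68 to 3.39 under EV, in wild-type worms. *lys-8* and *lys-2* overlapped between the groups in both strains as well. The part that the amount of intestinal RNA has in the lysozyme results was not tested.

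Early embryo markers had lower summed reads under *anc-1* RNAi. The list of 4 genes summed to 36.7 to 46.9 RPM under *anc-1* RNAi, against 90.4 to 226 RPM under EV, in polyQ35-YFP worms, and to 38.5 to 49.7 RPM under *anc-1* RNAi, against 168 to 218 RPM under EV, in wild-type worms. Most of the summed reads were of *tbx-38*. Under EV it averaged 958 normalised reads in polyQ35-YFP worms, beside 58.3 for *pes-10*, and 1090 in wild-type worms, beside 70.3 for *pes-10*. The paper reports *tbx-38* among the T-box genes that *anc-1* RNAi lowers, by RNA-Seq and qPCR of wild-type worms. Whether its lower reads here reflect less embryonic RNA was not tested. Of the 4 genes, 3 (*tbx-37*, *tbx-38* and *pes-10*) were called lower in both strains. The polyQ35-YFP count was 0 without a variance trend, 1 with library-size scaling, 2 with edgeR and 1 to 3 when single samples were left out. The fourth, *end-3*, was not called, with log2 fold changes of -0.60 in polyQ35-YFP and 0.64 in wild-type worms. Of 4 body-wall muscle genes, 2 were called higher in each strain, the myosin heavy chain gene *unc-54*, whose promoter also drives the polyQ35-YFP transgene, and the paramyosin gene *unc-15*. The log2 fold change of *unc-54* was 0.79 ± 0.16 in polyQ35-YFP worms (SE, limma, adjusted p = 0.0185) and 0.37 ± 0.09 in wild-type worms (adjusted p = 0.0140). Under EV, *unc-54* averaged 38886 normalised reads in polyQ35-YFP worms, beside 794 for *unc-15*. In wild-type worms under EV it averaged 3266, beside 887 for *unc-15*. Whether transcripts of the transgene were counted as *unc-54* was not tested. The log2 fold change of *unc-15* was 0.54 ± 0.12 in polyQ35-YFP worms (SE, limma, adjusted p = 0.0346) and 0.60 ± 0.10 in wild-type worms (adjusted p = 4.99e-04). *myo-3* (0.01 in polyQ35-YFP and 0.48 in wild-type worms) and *unc-22* (-0.36 in polyQ35-YFP and 0.65 in wild-type worms) were not called in either strain. The median of the muscle list was 0.275 in polyQ35-YFP and 0.539 in wild-type worms. The polyQ35-YFP count of 2 was 0 without a variance trend, 1 with library-size scaling and 0 to 2 when single samples were left out, and the wild-type count was 1 without a variance trend and 1 to 3 when single samples were left out. In wild-type worms the epidermal collagen genes *dpy-7* (log2 fold change 0.81) and *col-19* (-0.53) were called higher and lower, as were *glh-1* (0.64, higher) and *oma-1* (-0.45, lower) of the germline and oocyte list, and *unc-119* (-0.54) of the neuronal list was called lower. The call of *col-19* was lost in 6 of 14 alternatives, among them library-size scaling and no variance trend. The other 4 neuronal genes had wild-type log2 fold changes of 0.09 to 0.53, not called, and the list median was 0.26. For polyQ35-YFP worms limma called 0 genes of these 3 lists, but 1 germline gene was called higher and 1 neuronal gene lower with the replicate block and again without EV replicate 4, and 1 germline gene higher and 1 epidermal gene lower without both samples numbered 4. A call in 1 strain only does not show that the strains differ. The interaction of strain and treatment covered these genes too. It was called for 1 of all 11751 genes (limma), and its values for the genes of these lists are not given here. Of 3 pharyngeal muscle and 2 coelomocyte genes 0 were called in either strain by limma, with 2 coelomocyte genes higher at an unadjusted p below 0.05 in polyQ35-YFP worms. The part of embryonic or other tissue RNA in the lysozyme results was not tested.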

How the data were processed

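CEL-Seq2 libraries of whole-worm RNA were made by the authors, and reads were trimmed with cutadapt 1.12. They were aligned to WBcel235 with TopHat2 2.1.1 and counted on protein-coding genes with HTSeq-count 0.6.1, ignoring molecular identifiers, so PCR copies are counted. Genes with a mean count under 2 were discarded. The signal deposited per sample is the read count that the authors divided by a DESeq2 1.22.2 size factor, in a table per strain. The deposited results of the authors' own comparison (mean, fold change, error, statistic and p-values) were not used, and 0 columns of per-sample values were left out. From the spacing of the values, whole reads were recovered for 100% of values within 0.01.

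Values were tested as log2(value + 1) with limma 3.58.1 in R 4.3.3 (variance trend), per strain and without a replicate term, and Benjamini-Hochberg adjusted over all genes (threshold 0.05). The pseudocount shrinks ratios of low values, and fold changes of genes with few reads differed from those of the count tests in either direction. The script was tested on simulated data. The interaction used all 14 samples. Alternatives were count tests of the recovered reads (edgeR 4.0.16, DESeq2 1.42.0), pseudocounts of 0.5 and 5, a mean of at least 10, library-size scaling, no variance trend, the replicate number as a block, and samples left out. Positions are those of the tables, checked against Ensembl release 115, whose gene ends differ by up to 104 bases.

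The members, the lists and the rule for named genes (the 10 genes, *anc-1*, list genes called in either strain, and defining markers beside a result, such as *elt-2*) were chosen with earlier results of these data known. One list is not reported here. According to the series design, both treatments were part of every repeat, so same-numbered samples were set side by side as pairs in the block alternative and in the ratios, while the tests in each strain did not use the pairing. Their deviations from the group means correlated at 0.0491, 0.0806 and 0.0740 in wild-type replicates 1 to 3 (9430 genes) and 0.215, 0.0949, 0.122 and 0.570 in polyQ35-YFP replicates 1 to 4 (9566 genes). Between different numbers they ranged over -0.108 to 0.0353 in wild-type and -0.469 to 0.271 in polyQ35-YFP worms, where *anc-1* RNAi replicate 2 correlated more with EV replicates 1 (0.271) and 3 (0.146) than with its own number. Whether repeats came from separate cultures on separate days is not given in the sources used here, and p-values measure only the spread between these samples.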

Additional observations from a re-analysis of the deposited data

Results flagged for a closer look

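In polyQ35-YFP worms, where groups hold 4 samples, 28 groups of values were examined for a sample far from the others, and about 1 in 20 would stand out by chance. Replicate 2 of *anc-1* RNAi stood above its group for *lys-6*, with 8.16 normalised reads beside 6.58 to 6.66 in the other samples, from raw reads of 7, 7, 5 and 7 in replicates 1 to 4. Replicate 3 of EV stood above its group for *lys-5*, with 6.64 normalised reads beside 1.88 to 2.51 in the other samples.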

How the results depend on the processing

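The number of lysozyme genes called higher in polyQ35-YFP worms (1) was 0 without a variance trend, 2 with DESeq2, 2 without both samples numbered 4, 3 with the replicate block, and 1 to 3 when single samples were left out. In wild-type worms the number (4) was 1 without a variance trend, 6 with a pseudocount of 5, 5 with edgeR and 4 to 5 when single samples were left out. With the replicate block the wild-type count was 4. Shares of all genes were worked out only for the settings given with a share above, so the other counts stand without that comparison. The strain difference was called for 0 lysozyme genes in each of 23 alternatives. Signs turned only for values that were not called. In wild-type worms, *lys-10* was at -0.022 with a pseudocount of 0.5 and at -0.42 to 0.75 when single samples were left out, and *lys-6* at -0.49 to 0.092. In polyQ35-YFP worms, leaving out single samples gave -0.50 to 0.14 for *lys-3*, -0.71 to 0.18 for *ilys-3* and -0.37 to 0.40 for *ilys-2*. Without both samples numbered 4, *lys-3* was at 0.018 and *ilys-2* at 0.065, and *ilys-2* was at 0.058 with edgeR and 0.068 with DESeq2. The strain difference ranged over leave-one-out fits from -0.32 to 0.022 for *lys-4*, -0.69 to 0.50 for *lys-5*, -0.039 to 0.47 for *lys-7* and -0.36 to 0.035 for *lys-8*, and was 0.14 for *lys-5* with a pseudocount of 5. The cause of these shifts was not tested. A mean of at least 10 left 6 of the 10 genes, and DESeq2 gave no adjusted p to 4.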
